A study of Drosophila melanogaster with 3 samples.

Results

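Of the 1500 pooled regions with the highest signal for GFP-tagged Insensitive, 313 (20.9%) lay at divergent gene starts, where the transcripts of 2 protein-coding genes begin head to head on opposite strands. They belonged to 255 gene pairs with 509 genes and were found among 30000 deposited regions in all. A region was counted when its summit was at most 500 bp from a protein-coding start and that gene had a head-to-head partner starting no more than 1000 bp away. The regions were thus chosen by their pooled signal and summit position, and both are described here without a test. The study mapped binding of Insensitive, the product of the Drosophila melanogaster gene insv, by chromatin immunoprecipitation and sequencing (ChIP-seq) in whole embryos of both sexes collected over 0 to 24 h of development. The embryos came from a transgenic line that makes Insensitive with GFP at its C terminus, and chromatin sonicated to a size range of 200 to 800 was precipitated through GFP, so the values describe the tagged protein and average all cells and ages. There was 1 group of 3 biological replicates, with no second condition. Each replicate has a list of 30000 regions, peaks and background together, and the pooled list was made from all 3. The signal is the peak caller's own value, whose scale no source used here states, so it is used only within a list.

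Insensitive carries a BEN domain, a DNA-binding fold, and is known as a co-repressor in the embryonic nervous system and as a relative of the Elba factors, which bind as a complex at chromatin boundaries. The isolated BEN domain of Insensitive binds a short palindrome, and the Elba complex a related asymmetric site. Head-to-head genes are frequent in the compact fly genome, often encode housekeeping proteins, and share one stretch of DNA as the promoter of both.

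The palindrome CCAATTGG was found within 100 bp of the summit of 40 of the 313 regions (12.8%, 95% Wilson interval 9.53 to 16.9%), against 8.47% of all 1500 regions and 0.701% of windows of the same length around 19252 protein-coding starts. Motifs were sought on both strands, and a match is a description of the letters only. The stretches below show cases with several palindromes, with 1 in each gene of a pair and with 1 between the starts. The capitals mark the palindrome and, at Slu7 and Pkc98E, the Elba site. They are given on the forward strand from the RefSeq copy of the release 6 assembly (dm6). Gene pairs are named minus strand first, then plus strand.
Slu7/Pkc98E, 3R:29039959-29040066: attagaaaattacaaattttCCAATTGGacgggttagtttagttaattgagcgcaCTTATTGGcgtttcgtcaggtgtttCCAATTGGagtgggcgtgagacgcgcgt
ND-ASHI/Fum1, X:6678845-6678948: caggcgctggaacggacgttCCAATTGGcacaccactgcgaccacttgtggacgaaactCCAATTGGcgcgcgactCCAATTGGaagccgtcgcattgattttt
Apc/spg, 3R:28844466-28844525: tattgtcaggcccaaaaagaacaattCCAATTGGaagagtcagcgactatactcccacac
Apc/spg, 3R:28845440-28845499: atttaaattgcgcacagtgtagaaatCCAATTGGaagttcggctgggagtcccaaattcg
Ide/RhoBTB, 3L:20375925-20375984: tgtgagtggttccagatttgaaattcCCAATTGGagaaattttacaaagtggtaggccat
CG15011/CG1309, 3L:4259234-4259293: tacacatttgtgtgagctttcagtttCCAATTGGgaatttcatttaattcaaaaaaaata
The region at Slu7 and Pkc98E, a splicing factor and a protein kinase C, held the palindrome at 2 places with CTTATTGG, the reverse complement of the Elba site CCAATAAG, between them. The stretch at ND-ASHI, a subunit of respiratory complex I, and Fum1, a fumarase, held 3 palindromes in 104 bases, all inside ND-ASHI. Apc, a scaffold of the Wingless destruction complex, and spg, an activator of Rac GTPases, had 1 palindrome inside each gene in the stretches shown, and those of Ide, an insulin-degrading protease, with RhoBTB and of CG15011 with CG1309 were between the starts. For contrast, 2 palindromes are shown from head-to-head pairs with none of the 1500 regions, chosen as those with the smallest gap among sites that no A follows on either strand.
Targ1/CG10512, 3L:21202617-21202676: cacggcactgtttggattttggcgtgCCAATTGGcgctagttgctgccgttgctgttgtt
CG10948/Wbp2, 3L:12849645-12849704: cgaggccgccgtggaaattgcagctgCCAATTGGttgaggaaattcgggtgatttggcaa

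The Elba site CCAATAAG was within 100 bp of 16 summits (5.11%, 95% Wilson interval 3.17 to 8.14%), against 4.8% of all 1500 regions and 0.571% of all starts. CAATCAGA, an 8-mer known from an earlier scan of the same lists, was near 18 summits (5.75%, 3.67 to 8.91%), against 4.87% of all 1500 regions, 6.35% of those at single starts and 0.966% of all starts. The stretches from 60 bp inside one gene to 60 bp inside the other are shown for 3 short gaps among the 20 strongest regions, picked because they hold CAATCAGA, with CCAATAAG, CCAATTGG and CAATCAGA on either strand in capitals. The first held CCAATAAG as well. Of the other short gaps among these 20, trsn with Pef, Rpt4 with mldr and Slu7 with Pkc98E had no CAATCAGA within 100 bp of the summit.
CG11882/Pglym78, 3R:29148112-29148308: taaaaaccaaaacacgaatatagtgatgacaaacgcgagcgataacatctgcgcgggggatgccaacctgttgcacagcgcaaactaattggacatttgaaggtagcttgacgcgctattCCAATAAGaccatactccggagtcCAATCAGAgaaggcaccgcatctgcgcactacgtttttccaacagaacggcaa
eIF2Bepsilon/Ocrl, X:1922814-1923041: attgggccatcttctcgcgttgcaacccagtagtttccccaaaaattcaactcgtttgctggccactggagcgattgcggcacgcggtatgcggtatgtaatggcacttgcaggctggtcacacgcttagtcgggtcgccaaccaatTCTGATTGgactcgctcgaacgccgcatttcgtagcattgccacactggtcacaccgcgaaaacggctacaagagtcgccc
Fitm/AlaRS-m, 3L:5146003-5146158: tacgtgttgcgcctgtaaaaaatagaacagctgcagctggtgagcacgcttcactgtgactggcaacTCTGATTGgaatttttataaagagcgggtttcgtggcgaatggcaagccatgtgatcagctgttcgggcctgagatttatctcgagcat
None of these 3 stretches held the palindrome. The palindrome and CCAATAAG occurred together in 3 of the 313 regions, and 53 (16.9%) held one or both within 100 bp of the summit.

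The strongest of the regions was at CG11882 and Pglym78, a phosphoglycerate mutase of glycolysis, at 3R:29148063-29148433 with a pooled signal of 864 and rank 3. It ranked 3, 3 and 6 in replicates 1, 2 and 3. Its summit was 21 bp inside Pglym78, in the 5′ UTR, and the starts were 76 bp apart. Next came Gnptab, of the lysosomal sorting tag, and VhaAC45, an accessory subunit of the vacuolar proton pump, with a signal of 669 and ranks 13, 8 and 8. That summit was intergenic, 204 bp from the start of VhaAC45. The 20 strongest regions belonged to 18 pairs and ranked between 3 and 97 in every replicate, so none of them was missing from a replicate's upper ranks. Both genes of pyrimidine synthesis known as rudimentary (r) and rudimentary-like (r-l) were among them. The region of Nemp and r had a signal of 532 and ranks 17, 21 and 22, with the summit in an intron 472 bp inside r. That of r-l and dmrt93B, a DM-domain factor gene, had 437 and ranks 49, 34 and 18, with the summit 16 bp inside r-l.

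Genes of protein synthesis and turnover were also among these 20. The summit between Rpt4, a proteasome ATPase, and mldr was 6 bp from the mldr start (signal 392, ranks 47, 46 and 36). The summit between CG3902 and RpL26, a ribosomal protein, was 8 bp from the RpL26 start (signal 369, ranks 42, 56 and 53). The 2 eIF2B subunit genes of the translation initiation exchange factor, eIF2Bbeta with Ugalt and eIF2Bepsilon with Ocrl, had regions of 346 and 340, both with summits between the starts. Fitm, of fat storage, and AlaRS-m, a mitochondrial alanyl-tRNA synthetase, begin 35 bp apart, and their region (signal 323) ranked 60, 85 and 69. Besides Slu7 with Pkc98E and Apc with spg, the remaining pairs were ATPsynF with CG3548, Tes with qkr54B, Lnpk with rgr, trsn with Pef, Polr1D with brat, scaf6 with Papst2 and l(3)76BDm with asf1, a histone chaperone, with signals between 326 and 498.

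**Figure D1:**
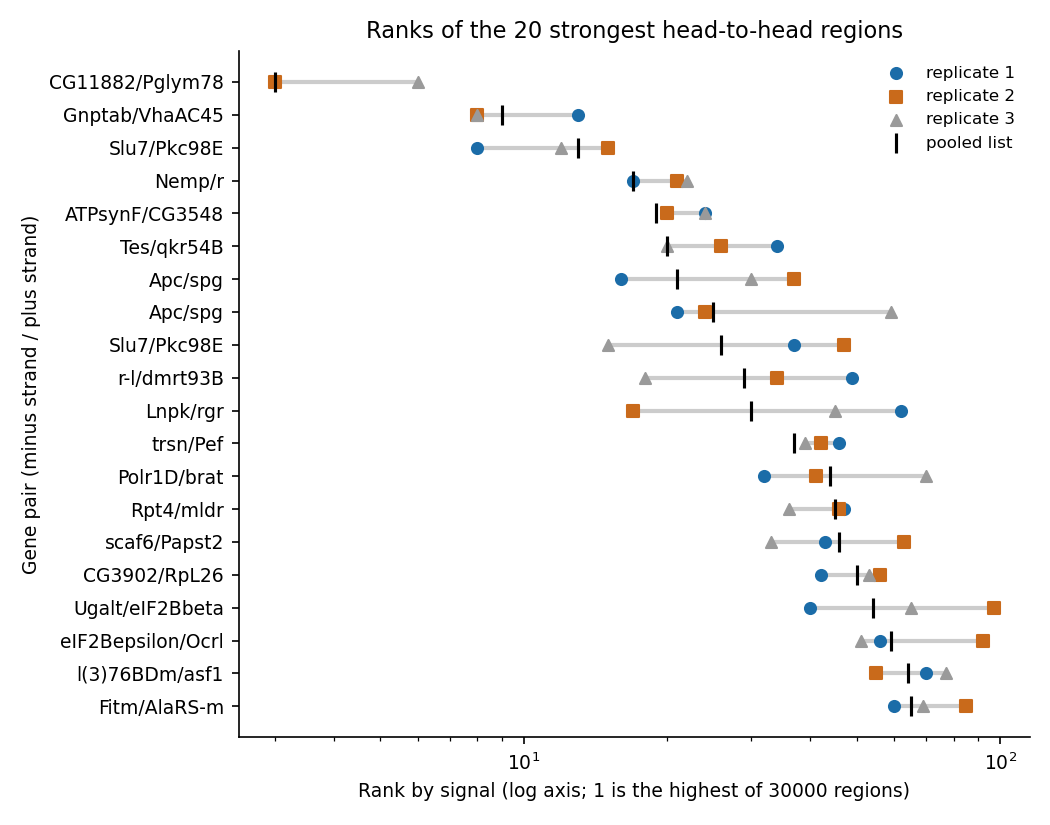
Ranks by signal of the 20 strongest head-to-head regions, 1 row per region with its gene pair at the left, on a log axis where 1 is the highest of 30000 regions. Points are the best overlapping region in each of the 3 replicates, bars span them and ticks are the pooled rank. The top row spans 3 to 6, and no point lies beyond 97.

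Most pairs had a single region (204 of 255), 45 pairs had 2, 5 pairs had 3 and Apc with spg had 4. The 4 regions of Apc and spg lay on both sides of the gap, with signals of 487 and 121 inside Apc and of 456 and 90.5 inside spg. The 2 inside Apc overlapped the same replicate regions, which ranked 16, 37 and 30, and the 2 inside spg overlapped those ranked 21, 24 and 59. Neighbouring pooled regions can thus stand for 1 stretch in a replicate. This held for 47 of the 313 regions, whose 3 replicate regions were all shared with a stronger pooled region. At Slu7 and Pkc98E, 1 of the 5 pairs with 3 regions, the strongest (630, ranks 8, 15 and 12) and a weaker one that overlapped the same replicate regions (174) were inside Pkc98E, and another (449, ranks 37, 47 and 15) was 10 bp from a further start of Pkc98E. The others were Pax (paxillin) with Alp12, sni with Trxr1 (a thioredoxin reductase), Fibp with Deaf1 and insv with Elba2.

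The insv gene itself was one of these. It begins head to head with Elba2, another BEN-domain gene, with a gap of 690 bp on 2L. Of the 3 regions, the strongest (signal 136, ranks 309, 399 and 893) had its summit between the starts, 386 bp from insv and 304 bp from Elba2. A weaker one (73.1), also between the starts and 72 bp from that of Elba2, overlapped the same replicate regions. The last (91.0, ranks 1249, 479 and 435) was in the 5′ UTR of insv, 329 bp inside the gene. None of the 3 held CCAATTGG or CCAATAAG within 100 bp of the summit. The line carries a tagged insv construct, and how many copies of this stretch the embryos held was not analysed here.

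The genes of the pairs were counted in 11 lists made from symbol patterns and set beside all 5052 genes of head-to-head pairs, of which 529 (10.5%) belonged to a pair with a region. No test was made on the lists. Of 14 vacuolar proton pump genes in such pairs, 7 had a region at their pair. After VhaAC45 came Vha36-1 with CG8187 (signal 205, ranks 172, 181 and 200), Vha13 (164), Vha100-2 (116), Vha26 (109), Vha55 (101) and Vha44 (57.6). The Vha44 region ranked 1000, 9761 and 2620 in replicates 1, 2 and 3, the others at 681 or higher up the list in each replicate. Vha13 shares its region, inside the gene and with a palindrome near the summit, with Nup58, a nucleoporin. Among 22 complex I genes 5 had a region, led by ND-18 with pcm (298) and ND-ASHI with Fum1 (216), and among 18 nucleoporin genes 4 did, led by Nup58 and Nup205 (128).

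The genes of protein synthesis and turnover were spread over strong and weak regions. Cytosolic ribosomal protein genes gave 11 of 56 (19.6%), and apart from RpL26 their signals were 99.1 or lower. RpS5a with Chchd2 had 99.1 and RpL41 with NaCP60E 85.5. Mitochondrial ribosomal protein genes gave 5 of 58 (8.62%), near the 10.5% of all paired genes, with mRpS23 (180), mRpS10 (169), mRpL41 (136) and mRpL23 (129) all between the starts and mRpL28 (62.3) not. The region at mRpL41 ranked 185 and 261 in replicates 1 and 3 and 3129 in replicate 2. Proteasome genes gave 5 of 26, with Rpt4 and Rpt3 (161) well above Rpn13 (59.8), Rpn5 (55.7) and Prosbeta4 (54.8). Aminoacyl-tRNA synthetases gave 3 of 24, with AlaRS-m, TyrRS (124) and ValRS (108), and translation initiation factors 3 of 21, the third being eIF2Bdelta (53.8). Mediator genes gave 2 of 19, MED15 (71.2) and MED30 (67.1), and kinesins 0 of 7. Of insv, Elba1 and Elba2, 2 were in a pair, the one they share.

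Summits were more often between the starts than those of weaker regions at the same kind of place. In 127 of the 313 regions (40.6%, 95% Wilson interval 35.3 to 46.1%) the summit was between the starts, and in 96 and 90 it was inside the minus-strand and the plus-strand gene. Among the 1674 lower-ranked pooled regions that meet the same position rule, 266 (15.9%) were between the starts. On average 25.5% of the positions the rule allows lie between the starts. The gap was 334 bp (median, range 30 to 977 bp). Summits between the starts were a median of 77 bp from the nearer start and those inside a gene 273 bp. These distances are not alike, because a summit between the starts is never farther than the middle of the gap. One inside a gene may lie up to 500 bp away. The bin just upstream of the nearer start, 0 to 100 bp from it, held 81 regions (25.9%), against 118 of the lower-ranked regions (7.05%). No test was made, since position entered the rule. Of 278 summits (88.8%) the deposited position was the middle of the region, whose median width was 416 bp, so positions are no finer than that.

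**Figure D2:**
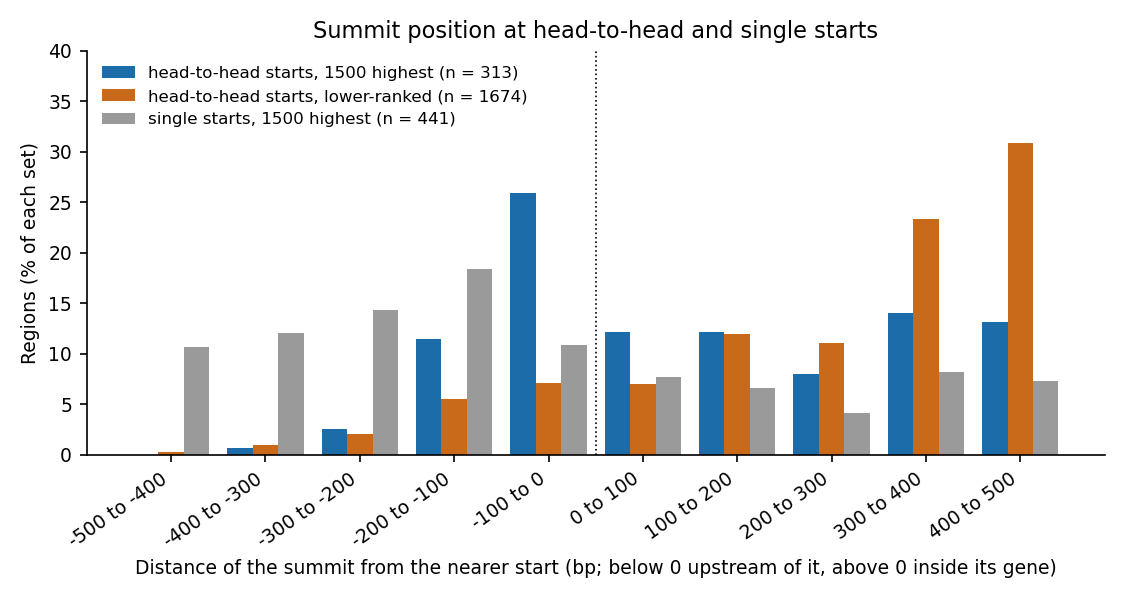
Share of regions by distance of the summit from the nearer start in bp, below 0 upstream of the start and above 0 inside its gene. Bars are the 313 head-to-head regions, the 1674 lower-ranked regions at head-to-head starts and the 441 regions at single starts. Head-to-head regions peak at 25.9% just upstream of the start, lower-ranked ones at 30.8% 400 to 500 bp inside the gene.

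By annotation 92 summits were intergenic, 84 in 5′ UTRs, 72 in introns, 64 in coding exons and 1 in a 3′ UTR. All 64 coding-exon summits were inside a gene of the pair, and 24 of the 127 summits between the starts were in introns of annotated transcripts. Coding exons held 20.4% of the regions, against 28 of the 441 regions (6.35%) at single starts, which have a protein-coding start at the same distance but no head-to-head partner. The summit of these single-start regions was upstream of the start in 292 cases (66.2%). The positions open to the 2 sets differ, so these shares are not a like comparison. A single start allows the same distance upstream and inside. At head-to-head starts on average 25.5% of the allowed positions are in the gap and the rest inside a gene. The median signal was 109 for summits between the starts, against 69.5 for those inside genes. Split into 3 parts by signal, 55.2% of the strongest, 46.2% of the middle and 20.2% of the weakest part were between the starts. Of these between-start summits 58 were nearer to the minus-strand start, 68 nearer to the plus-strand start and 1 at the same distance from both. The regions were spread over all long arms, with 84 on 3R, 63 on 2R, 58 on 3L, 55 on X and 53 on 2L.

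The replicates shared a little over 1 in 2 of the regions. A region counted as found in a replicate when one of that replicate's 1500 highest regions overlapped it by at least 1 bp. Of the 313, 171 (54.6%, 95% Wilson interval 49.1 to 60.1%) were found in all 3, against 40.4% of all 1500 regions and 195 of 441 (44.2%) at single starts. Each replicate found 76.4%, 71.2% and 67.1% of them (71.6% ± 4.64, SD, n = 3). Without the regions that share their replicate regions with a stronger one, it was 125 of 266 (47.0%), against 165 of 409 (40.3%) at single starts and 36.0% of all regions treated alike. Recovery went with signal, with 98.1% of the strongest, 55.8% of the middle and 9.62% of the weakest of the 3 parts found in every replicate. The replicates entered the pool, so these shares are not independent of the choice of regions, and the differences were not tested. In the authors' thresholded list, which passed a reproducibility analysis, were 175 of the 313 (55.9%), against 48.8% of the 1500. Here that list amounted to a cut by pooled signal, since it held the highest-ranked of the 1500 regions. These shares thus restate the pooled rank and are no separate measure of recovery in the replicates.

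The ranks of single regions differed in how far they moved between replicates. The steadiest was the region of Rac1, a small GTPase, and Acat2, with ranks 353, 352 and 374, followed by CG6761 with CG16711 (280, 308 and 265) and CG8187 with Vha36-1. The widest was that of Pax with Lectin-galC1, at 494, 4853 and 24042 in replicates 1, 2 and 3, then Trmt6 with Ent2 (617, 3881 and 28788) and Gcn5, a histone acetyltransferase, with ver (19997, 1488 and 470). Over the 289 regions with an overlap in every full replicate list the largest rank was a median of 2.66 times the smallest. No replicate's 1500 highest regions overlapped 23 of the 313. Just inside the limit of the 1500 were hook with mib2 (signal 53.3), mfrn with Gp93 (53.2) and Hsp68 with SMC1 (53.0). Just outside were Arp3 with msk (52.9), Exo84 with Vps2 (52.8) and rno with mri (52.6). The last region inside, Hsp68 with SMC1, ranked 7003, 999 and 8641 in replicates 1, 2 and 3, and the first outside, Arp3 with msk, 8028, 4525 and 7411.

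Head-to-head pairs with a region more often carried the palindrome inside their genes than pairs without one. Of all 2667 pairs of genes starting head to head within 1000 bp, 278 (10.4%) had a region at one of their starts. These outnumber the 255 pairs named for the regions, because a start can have several partners and each pair counts here. In the first 500 bp of both genes, CCAATTGG was present in 39 of these 278 pairs (14.0%) and in 66 of 2389 pairs without a region (2.76%), an odds ratio (OR) of 5.74 with a 95% confidence interval (CI) of 3.67 to 8.86 and, by two-sided Fisher's exact test, p = 8.91e-13 after adjustment over 11 motifs. Between the starts it was present in 10 pairs (3.60%) with a region, against 22 (0.921%) without (OR 4.01, CI 1.68 to 8.94, adjusted p = 0.00567 by Fisher's exact test). The main comparison of pairs used 1 window at the midpoint, where the palindrome did not pass (adjusted p = 0.106 by Fisher's exact test). The motifs were chosen with earlier results known and these stretches after the data had been seen. The p-values for the stretches, here and below, are thus no independent support. Per length, the palindrome occurred 0.158 times per kb inside and 0.103 times per kb between the starts of pairs with a region, against 0.0281 and 0.0260 in pairs without. Median gaps were 299 and 302 bp, and mean GC contents inside the genes 47.5% and 46.5%, in pairs with and without a region. No comparison matched for these was made, and their part in the difference was not tested. The odds ratio inside the genes was 9.14 for pairs with 1 of the thresholded regions, and 9.91 to 10.3 with only regions found in both other replicates when 1 was left out. Both settings are stricter filters of the list pooled from all 3 replicates.

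CCAATAAG passed the test in the gap, and inside the genes its call depended on the length taken. It was present between the starts of 13 pairs with a region (4.68%) and 22 without (0.921%), an OR of 5.27 (CI 2.41 to 11.1, adjusted p = 0.000255 by Fisher's exact test). Inside the genes it was in 14 (5.04%) and 62 (2.60%) pairs (OR 1.99, CI 1.01 to 3.66, adjusted p = 0.0913 by Fisher's exact test), which did not pass with 500 bp of each gene. It passed with 250 bp (OR 2.75, adjusted exact p = 0.0336) and with 1000 bp (OR 1.83, adjusted exact p = 0.0291). Within 100 bp of the midpoint between the starts, CCAATAAG was the 1 motif of 11 that passed (9.09%), in 10 of 278 pairs (3.60%) against 13 of 2389 (0.544%, OR 6.81, CI 2.65 to 17.0, adjusted p = 0.000473 by Fisher's exact test). With 50 bp to each side of the midpoint 0 of the 11 motifs passed. The palindrome was within 100 bp of the midpoint of 4 pairs with a region and 9 without (OR 3.86, CI 0.862 to 13.9, exact p = 0.0387 by Fisher's test and 0.106 after adjustment), which did not pass. It did pass within 200 bp of the midpoint and over the whole stretch from start to start with 100 bp added (odds ratios 5.77 and 6.83). Between the starts 2 of the 11 motifs were more frequent (18.2%) and 1 less frequent (9.09%). The latter was the initiator sequence TCAGTT (14.0% against 21.9%, OR 0.584, CI 0.399 to 0.834, adjusted p = 0.00859 by Fisher's exact test). A TCAGTT that spans an annotated start is cut by both kinds of stretch and was not counted, so these matches are not initiators of those starts. Inside the genes 3 of the 11 motifs were more frequent (27.3%). There 0 were less frequent (0%), and 0 were so at an unadjusted p under 0.05. Besides the palindrome, the more frequent ones were CAATCAGA, in 7.91% against 3.73% (OR 2.22, adjusted exact p = 0.0124), and the E-box CAGCTG, in 56.1% against 47.0% (OR 1.44, adjusted exact p = 0.0158). CAATCAGA was known from an earlier scan of the same lists, so its p-value is no independent support. In the windows around all starts, which are 100 bp to each side and so not of the same length as these stretches, TCAGTT was present in 21.9% and CAGCTG in 13.4%.

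**Figure D3:**
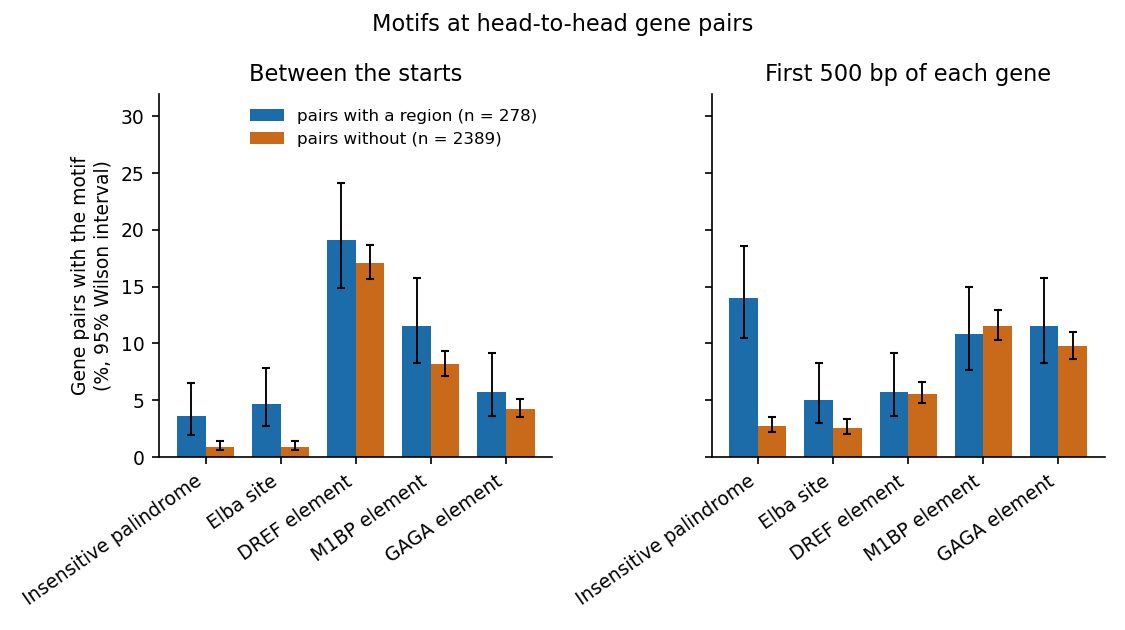
Share of head-to-head gene pairs with a motif between the starts (left) and in the first 500 bp of each gene (right), for 278 pairs with a region and 2389 without, with 95% Wilson intervals. The Insensitive palindrome stands at 14.0% against 2.76% inside the genes, and the Elba site at 4.68% against 0.921% between the starts. The DREF, M1BP and GAGA elements have overlapping intervals in both panels.

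The base beside the palindrome also differed between pairs with and without a region. The palindrome reads the same on both strands, so each site has a following base on either strand. From 500 bp inside one gene to 500 bp inside the other, 30 of 51 distinct sites in pairs with a region (58.8%) were followed by A on both strands, against 8 of 88 (9.09%) in pairs without (OR 13.9, CI 5.31 to 40.7, p = 4.04e-10 by Fisher's exact test). A followed on neither strand at 2 sites in pairs with a region and 40 in pairs without. Of the 43 distinct palindromes within 100 bp of a summit, 42 were followed by A on at least 1 strand and 29 on both. Both sites printed for Apc and spg had T before and A after the capitals on the strand shown. The sites printed from pairs without a region were picked for having no A, and are an example only. This comparison was made after the sequences had been seen.

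**Figure D4:**
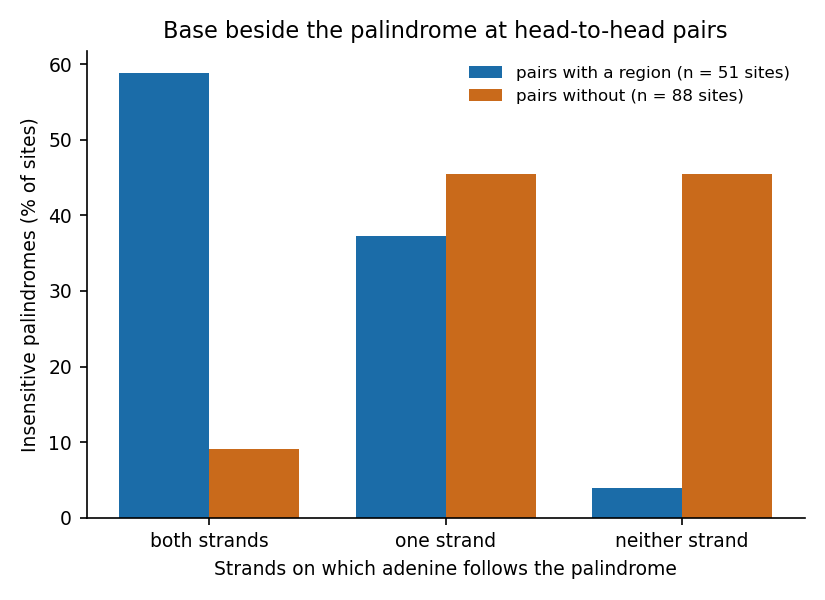
Palindromes at head-to-head pairs by the number of strands on which adenine follows them, as a percentage of 51 sites in pairs with a region and 88 in pairs without. Adenine on both strands is the most frequent class with a region (58.8%) and the least frequent without (9.09%).

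Most of the palindromes near summits were inside genes. Of the 43 palindromes near a summit, 34 were inside a gene of the pair, a median of 192 bp from its start, and 9 between the starts. On average only 25.5% of the positions the rule allows for a summit lie between the starts. The split by itself thus shows no preference for genes. The 18 CCAATAAG sites were split evenly, 9 inside and 9 between. Since sites were sought only within 100 bp, their median distances to the summit, 31.5 bp for the palindrome and 39.5 bp for CCAATAAG, are bounded by that window. Regions with the palindrome were found in all 3 replicates in 30 of 40 cases (75%), against 51.6% of the 273 without it, and those with CCAATAAG in 15 of 16. They also had higher signal, with medians of 152 with and 79.4 without the palindrome, and of 232 with and 85.1 without CCAATAAG. Of the 3 parts by signal, the strongest held the palindrome in 22.9% of regions, the middle in 11.5% and the weakest in 3.85%. The deposited summit was the middle of the region in 278 of the 313. It was elsewhere in 13 of the 40 with the palindrome and 8 of the 16 with CCAATAAG. Around a summit that is only the middle, 100 bp to each side can miss a motif in the region. The part of this in the trend with signal was not tested.

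Between the starts the strongest regions with the palindrome were Lnpk with rgr (signal 434, ranks 62, 17 and 45), CG14435 with Tmf (289, ranks 106, 143 and 57) and Ide with RhoBTB (276, ranks 64, 151 and 99). These ranked high in each replicate. Then followed ana2, a centriole duplication gene, with CG13751 (187), Tnks, a tankyrase, with RASSF8 (167), Fibp with Deaf1 (114), alc with CG8788 (102), CG15011 with CG1309 (87.7), sud1 with CG11168 (67.4) and sni with Trxr1 (59.7). Of these 10, CG15011 with CG1309 (729, 499 and 17725), alc with CG8788 (482, 2128 and 616) and sud1 with CG11168 (3102, 724 and 485) were past rank 1500 in 1 replicate, and sni with Trxr1 (1812, 16164 and 604) in 2. In the regions of CG14435 with Tmf, ana2 with CG13751 and alc with CG8788 the palindrome itself was inside a gene, although the summit was between the starts.

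Compared with regions at single starts, the head-to-head regions had fewer GAGA elements. With 1 region per gene pair or gene, GAGAGAG was within 100 bp of the summit at 4 of 255 head-to-head pairs (1.57%) and 37 of 384 single-start genes (9.64%), an OR of 0.150 (CI 0.0383 to 0.425, adjusted p = 0.000224 by Fisher's exact test). It was the 1 motif of 11 that was less frequent (9.09%), and 0 were more frequent (0%), with 0 at an unadjusted p under 0.05. All protein-coding starts held it in 4.69% of windows. Lower-ranked regions showed 1.97% at head-to-head starts and 3.65% at single starts, a difference that was not tested. With 50 bp to each side the call was lost (3 against 12 regions, OR 0.370, adjusted exact p = 0.496).

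The palindrome was in 35 of 255 head-to-head regions (13.7%) and 34 of 384 single-start regions (8.85%), an OR of 1.64 whose CI, 0.960 to 2.79, includes no difference (exact p = 0.0678 by Fisher's test and 0.273 after adjustment). CCAATAAG was in 13 (5.10%) and 18 (4.69%, OR 1.09, CI 0.482 to 2.41, adjusted p = 1 by Fisher's exact test). TATCGATA, the DREF element, was in 6.27% against 3.13% (OR 2.07, CI 0.902 to 4.89, adjusted p = 0.273 by Fisher's exact test). The other 7 motifs had odds ratios between 0.750 and 1.45. Mean GC content of the windows was 42.9% at head-to-head and 41.1% at single starts.

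**Figure D5:**
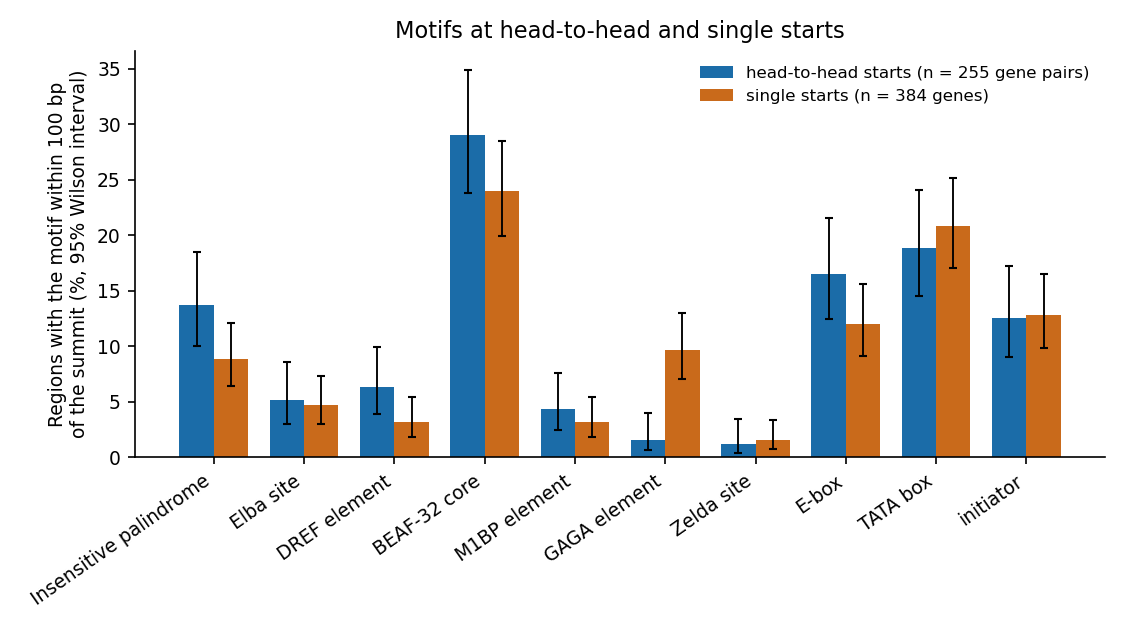
Share of regions with a motif within 100 bp of the summit for 255 head-to-head gene pairs and 384 single-start genes, 1 region each, with 95% Wilson intervals. The GAGA element stands at 1.57% against 9.64%, and the Insensitive palindrome at 13.7% against 8.85% with overlapping intervals.

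The same measures were taken in each replicate's own 1500 highest regions. Head-to-head regions made up 19.8%, 20.4% and 19.5% of them (19.9% ± 0.444, SD, n = 3), and 36.8% ± 3.03 of these had the summit between the starts. The palindrome was in 10.4%, 12.1% and 11.5% of the head-to-head pairs, against 5.72%, 7.07% and 8.17% of the single-start genes. The difference was 4.32 percentage points ± 0.922, positive in 3 of 3 replicates. GAGAGAG was in 1.59%, 4.30% and 1.53% of head-to-head pairs and 7.90%, 11.3% and 7.89% of single-start genes, a difference of -6.54 percentage points ± 0.362. CCAATAAG was in 5.46% ± 0.273 and 4.17% ± 0.300. These lists overlap in regions and are no independent test.

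Windows around summits between the starts and windows around summits inside genes differed in promoter motifs, a contrast of gap DNA with gene DNA. The TATA box sequence TATAAA was near 34 of 112 summits between the starts (30.4%), against 18 of 166 inside a gene (10.8%), with 1 region per pair and side (OR 3.57, CI 1.82 to 7.18, adjusted p = 0.000756 by Fisher's exact test). CGATA, the core of the BEAF-32 site, was in 39.3% against 23.5% (OR 2.10, adjusted exact p = 0.0396) and TATCGATA, which contains CGATA, in 10.7% against 3.01% (OR 3.85, adjusted exact p = 0.0396). These were 3 of 11 motifs (27.3%), with 0 less frequent (0%) and 0 so at an unadjusted p under 0.05. The windows between the starts had a mean GC content of 36.4%, against 47.6% inside genes, and the part of base composition in these differences was not tested. All starts held TATAAA in 26.9%, CGATA in 37.1% and TATCGATA in 6.45% of windows. The split is by summit position, which the rule used, so the p-values of this contrast show no trait of the regions themselves. A pair with regions on both sides counts in both groups. Within 100 bp of the midpoint, pairs without a region held these motifs in 39.6%, 41.7% and 8.7%. Pairs with a region held them there in 41.0%, 37.8% and 6.8%. The calls for CGATA and TATCGATA were lost among thresholded regions and whenever 1 replicate was left out, and that for TATAAA with 50 bp to each side (OR 2.45, adjusted exact p = 0.106). The palindrome was in 11 of 112 (9.82%) and 25 of 166 (15.1%, OR 0.615, CI 0.261 to 1.37, exact p = 0.274 by Fisher's test and 0.431 after adjustment).

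A scan of all 2080 6-mers, with reverse complements counted as 1, was made around the midpoints of pairs with and without a region. AGTTAC was in 16.2% of the 278 pairs with a region and 7.16% of the 2389 without (Fisher's exact test, adjusted p = 0.00434), and ATTGGA in 18.7% against 10.1% (adjusted p = 0.0463). Both calls were lost with 50 bp to each side, where ATTGGA was in 6.12% against 4.81% (adjusted exact p = 0.976) and AGTTAC in 8.63% against 3.85% (adjusted exact p = 0.204). With 100 bp to each side these were the 2 more frequent 6-mers (0.0962%), with 0 less frequent (0%), and 163 had an unadjusted p under 0.05 in either direction. ATTGGA is the right side of the palindrome followed by A. Most windows with it lacked the whole palindrome, since ATTGGA was in 52 of the 278 windows and CCAATTGG in 4. Between head-to-head and single-start regions 0 of 2080 passed in either direction by Fisher's exact test (0%), and 145 had an unadjusted p under 0.05.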

How the data were processed

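Whole embryos of 1 group with 3 biological replicates, per the labels, were analysed by ChIP-seq. Whether the replicates came from separate collections is stated nowhere, so spreads over them may be technical. The authors deposited lists of 30000 regions per replicate and for the pool, as input for a reproducibility analysis, with a signal per region, and a thresholded list. No source used here gives the caller, aligner, reproducibility threshold or depth, and the control reads were not analysed here. The dm3 lists were not used.

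Starts came from the Ensembl release 115 annotation (BDGP 6.54) and sequence from the RefSeq release 6 assembly. Of a gene's starts the one nearest to the summit was taken with its closest partner. Fisher's exact test (two-sided) was used for motifs and 6-mers, with Benjamini-Hochberg adjustment over 11 motifs or 2080 6-mers and a threshold of 0.05. Regions and pairs were treated as independent, and intervals cover counting error only. The scan was tested on simulated data. Named genes were the 20 strongest regions, the 10 strongest between starts with the palindrome, pairs with 3 or more regions, members of the gene lists, insv and Elba2, the 3 steadiest and 3 widest in rank, and 3 to each side of the limit. The sequences shown and the bases beside the palindrome were chosen after seeing the data. Regions, lists and motifs were chosen with earlier results of these data known. Scripts ran with SciPy 1.17.1, NumPy 2.4.6, matplotlib 3.10.9 and pandas 2.3.3 under Python 3.11.15.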

Additional observations from a re-analysis of the deposited data

How the results depend on the processing

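No paired analysis was possible because the series has a single group. The rule gave 175 regions in the authors' thresholded list and 560 among the 3000 highest. As the thresholded list was a cut of the pooled list by signal, values among thresholded regions describe a higher signal limit. The share found in all replicates was 45.4% when 50% of a region had to be covered, 49.5% and 60.7% with the 1000 and 3000 highest replicate regions, 88% among thresholded regions, and 57.2 to 60.7% without 1 replicate. In the thresholded list 49.7% had the summit between the starts. Head-to-head regions were 25% of each replicate's highest when as many as in the thresholded list were taken, and 16.4% of its 3000 highest, and 19.7 to 20.1% without 1 replicate. For pairs with against without a region, the palindrome's odds ratio at the midpoint was 6.83 from start to start with 100 bp added, 5.77 with 200 bp to each side and 8.23 against pairs with no pooled region of any rank, and each passed. The odds ratio was 3.71 with 50 bp to each side and 5.63 with starts at most 500 bp apart, and neither passed. Nor did it pass among thresholded regions (5.21) or with 1 pair kept where midpoints lie within 500 bp (3.87). It was 3.67 to 5.39 without 1 replicate, which did not pass. Between the starts it was 5.41 to 6.86 for the palindrome and 7.67 to 9.61 for CCAATAAG without 1 replicate. CCAATAAG inside the genes passed with 250 bp (odds ratio 2.75) and 1000 bp (1.83) of each gene, and was 1.89 to 2.27 without 1 replicate, which did not pass. For A on both strands the odds ratio was 12.8 to 13.7 without 1 replicate, and 7.72 with 1000 bp of each gene. Of 11 motifs, 3 passed from start to start, 0 with 50 bp and 5 with 200 bp to each side. Of the 6-mers 0 passed with 50 bp. The palindrome against single starts did not pass under any setting run (1.64 to 1.91 without 1 replicate). GAGAGAG gave 0.370 with 50 bp, which did not pass, and 0.0986 to 0.113 without 1 replicate. TATAAA gave 2.45 with 50 bp, which did not pass, and 3.41 to 3.82 without 1 replicate. CGATA did not pass with 200 bp (1.74), among thresholded regions (1.47) or without 1 replicate (1.16 to 1.50), nor TATCGATA among thresholded regions (2.02) or without 1 replicate (1.42 to 1.85). Leaving out a replicate keeps only pooled regions found in both others, a stricter filter. Except for the shares in each replicate's own list, the pooled signal and summit still include the replicate left out. These ranges are thus no measure of how far the results depend on it. Settings for the bases beside the palindrome, the stretches inside genes and between the starts, GAGAGAG and the contrast of between and inside were chosen after seeing the data.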
